A study of Sus scrofa with 2 samples.

Results

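The 7 subunits of respiratory complex I that are encoded by the mitochondrial genome, ND1, ND2, ND3, ND4, ND4L, ND5 and ND6, were followed in pig back muscle after constant heat. They were found by their symbols among the Ensembl pig gene identifiers of the deposited table, and all 7 were present once each among 27987 entries. Longissimus dorsi was taken from crossbred barrows of the DLY cross (Duroc boars on Yorkshire-Landrace sows) that weighed 79.0 ± 1.5 kg and came from 8 litters. The heat arm (H30) held 8 pigs at 30 °C for 21 days and the control arm (CON) held 8 pigs at 22 °C for the same time. Age is not given in the labels. Each arm has 1 messenger RNA library, and whether it holds 1 pig or a pool was not given in the sources used here.

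Complex I takes electrons from NADH, passes them to ubiquinone and pumps protons across the inner mitochondrial membrane. The proteins made inside the mitochondrion are the core of its membrane arm, while the core of the NADH-oxidizing arm and the many accessory subunits are made from nuclear genes. In mammals the mitochondrial genes are read as long joint transcripts that are then cut, largely at the transfer RNAs between the genes. ND4L and ND4 stay joined on a shared messenger RNA, and ND6 is read from the opposite strand to all the other protein genes. Skeletal muscle is rich in these transcripts.

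The heat library held 22863584 reads and the control library 23608242, worked back from the RPKM values (reads scaled to gene length and library total). Muscle identity was checked on 8 matched markers, of which the lowest stood at 551 RPKM in the 30 °C library and 575 RPKM in the 22 °C library, led by skeletal actin, ACTA1, at 65219 and 68749 RPKM. A test over pigs needs more than 1 library per arm, so none is given, and effects of temperature cannot be told apart from those of the pigs, their handling or the library. The intervals given here are 95% intervals for counting error only. In bulk tissue, fewer cells of a type and less RNA per cell also cannot be told apart, and nor can fewer mitochondria and less RNA per mitochondrion.

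Once the values were seen, the 7 genes were put into 2 sets by their ratios. ND1, ND2, ND5 and ND6 were 1.12 to 1.21 times as high in the 30 °C library as in the 22 °C library, while ND3, ND4L and ND4 stood at nearly the same level in both. In all, 4 of the 7 were at least 1.1-fold higher in the 30 °C library, beside 34.1% of all 13191 genes compared (mean RPKM of 1 or more) and 22.0% of the 141 most abundant of them (mean RPKM of 500 or more). After centring on the median gene, 2 of the 7 (ND2 and ND6) passed this limit, beside 26.3% of all genes, and the trimmed mean gave the same count and share. The limit of 1.1-fold was chosen after the values were seen. No member was 2-fold apart, while 0.629% of all genes were higher by 2-fold or more and 0.584% lower by that much. The median log2 ratio of the members was 0.16, computed as log2((30 °C RPKM + 1)/(22 °C RPKM + 1)). It was 0.05 over all genes compared and 0.011 over the 141 abundant genes. All 7 lay above 0 on the deposited scale, beside 58.8% of all genes and 56.0% of the abundant ones, but ND3, ND4L and ND4 lay below 0 once the libraries were centred on the median gene or rescaled by a trimmed mean.

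**Figure D1:**
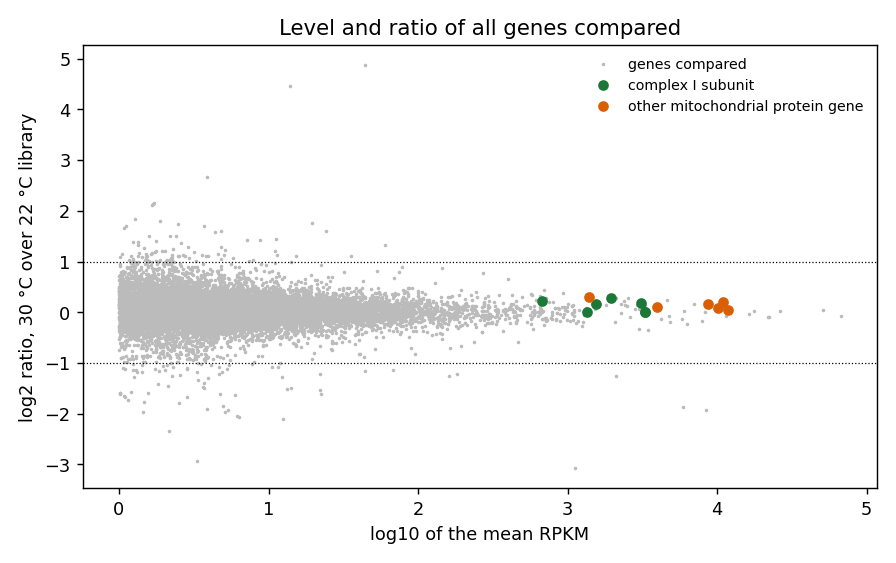
Each grey point is a gene compared, at the log10 of its mean RPKM over both libraries (x) and its log2 ratio of the 30 °C over the 22 °C library (y); dotted lines mark 2-fold. The complex I subunits (green) sit among the most abundant genes, between log2 ratios of 0.0038 and 0.28, and the 3 lowest turn negative after centring on the median gene.

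ND2, ND4 and ND5 are the large subunits of the membrane arm that resemble cation antiporters and carry proton channels. ND2 (ENSSSCG00000018069) stood at 2149 RPKM in the 30 °C library and 1774 RPKM in the 22 °C library. Its ratio of 1.21 (1.18 to 1.24) was the largest of the 7. ND5 (ENSSSCG00000018091), at the far end of the arm, stood at 1633 RPKM in the 30 °C library and 1461 RPKM in the 22 °C library, a ratio of 1.12 (1.11 to 1.13). ND4 (ENSSSCG00000018087) did not share this difference, with 3296 RPKM in the 30 °C library and 3266 RPKM in the 22 °C library. The ratio of ND4 was 1.01, and its interval of 1.0007 to 1.018 lay below the ratio of 1.04 at the median of all genes. The ratios of ND2 and ND5 thus lay outside the interval of ND4.

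ND1 (ENSSSCG00000018065) sits at the heel of the complex, where the membrane arm meets the arm that oxidizes NADH and where ubiquinone enters. It stood at 3296 RPKM in the 30 °C library and 2915 RPKM in the 22 °C library, a ratio of 1.13 (1.12 to 1.14). In the 22 °C library it was below ND3 and ND4, and in the 30 °C library it was level with them.

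ND3, ND4L and ND6 are the small subunits that lie between ND1 and the first antiporter-like subunit. ND3 (ENSSSCG00000018084) stood at 3301 RPKM in the 30 °C library and 3276 RPKM in the 22 °C library, a ratio of 1.01 (0.991 to 1.03). ND4L (ENSSSCG00000018086) stood at 1350.4 RPKM in the 30 °C library and 1347 RPKM in the 22 °C library, a ratio of 1.003 (0.974 to 1.03). ND6 (ENSSSCG00000018092) was the least abundant, with 726 RPKM in the 30 °C library and 618 RPKM in the 22 °C library. Its ratio of 1.17 (1.14 to 1.21) was the second largest, next to ND2. The intervals of ND3 and ND4L hold 1, so no difference was detectable for them at this depth on the deposited scale.

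**Figure D2:**
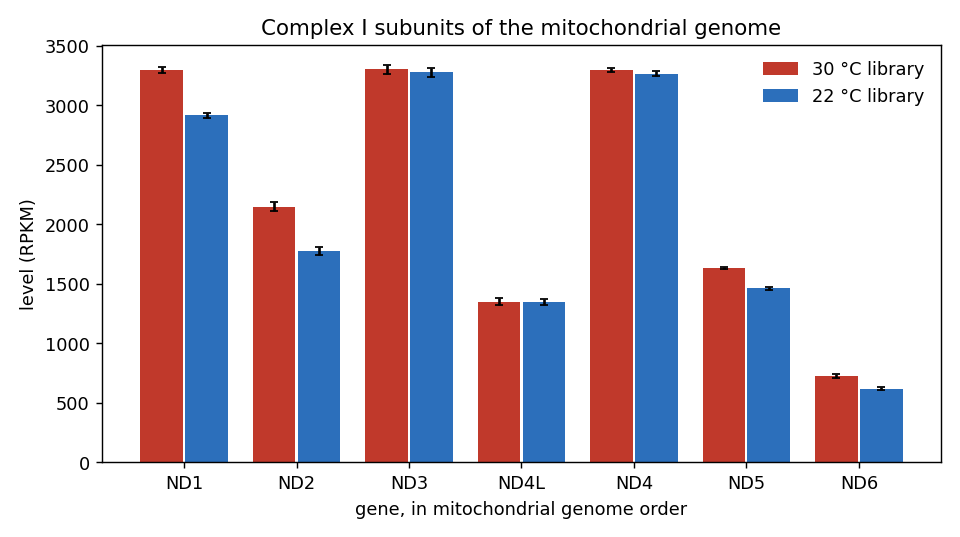
Bars give the level in RPKM (y) of each complex I subunit gene, in genome order (x), in the 30 °C library (red) and the 22 °C library (blue); error bars are exact 95% Poisson intervals for counting error in 1 library each. ND1, ND2, ND5 and ND6 differ between the libraries, from 726 against 618 RPKM for ND6 to 3296 against 2915 RPKM for ND1, while the bars of ND3, ND4L and ND4 are nearly equal.

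The counting intervals are narrow because these genes collect many reads. Whole reads could be recovered at a single gene length for 6 members. ND4, at 1378 bp, held the most, 103851 reads in the 30 °C library and 106247 in the 22 °C library. ND6, at 528 bp, held the fewest of these 6, 8761 and 7704 reads in the same order of libraries. ND1 came out at 957 bp, ND5 at 1821 bp, ND3 at 346 bp and ND4L at 297 bp. ND2 gave whole reads at any multiple of 261 bp, so its 12824 reads in the 30 °C library and 10929 in the 22 °C library are minimum numbers and its interval is too wide rather than too narrow. In all, 5 members had an interval above 1, beside 20.6% of all genes, and none had one below 1, beside 10.6%. Set against the ratio of 1.04 at the median gene instead, 4 members had an interval above it, beside 15.2% of all genes, and 3 had one below it, beside 14.4%. ND4 is among the 5 in the first count and among the 3 in the second. The number of reads behind a gene sets how often this happens, and for most genes the recovered reads are a minimum, so the background shares are low estimates.

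The 3 genes with nearly equal levels are consecutive on the mitochondrial genome. In the order of the reference gene table, which is of another build (Sscrofa11.1) and was used for names and neighbours only, ND3, ND4L and ND4 follow each other with no other protein gene between them. The log2 ratio was 0.011 for ND3, 0.0038 for ND4L and 0.013 for ND4. ATP6, a subunit of ATP synthase that lies on the other side of COX3, was also low at 0.04, so a log2 ratio under the 0.05 of the median gene was not confined to these 3. COX3 itself, a subunit of cytochrome c oxidase, lies next to ND3 with a log2 ratio of 0.20, and on the far side of ND4 come ND5 with 0.16 and then ND6 with 0.23. At the start of the order, ND1 had 0.18 and its neighbour ND2 had 0.28. All of these values are relative to the deposited scaling, and centring on the median gene lowered each by 0.05, which put ND3, ND4L, ND4 and ATP6 below 0. ND4L and ND4 share a messenger RNA and a short overlap, and the labels do not say that the kit marks strand. Reads of ND4L and ND4 within their overlap, and reads of ND6 and of the opposite strand there, therefore cannot be told apart.

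**Figure D3:**
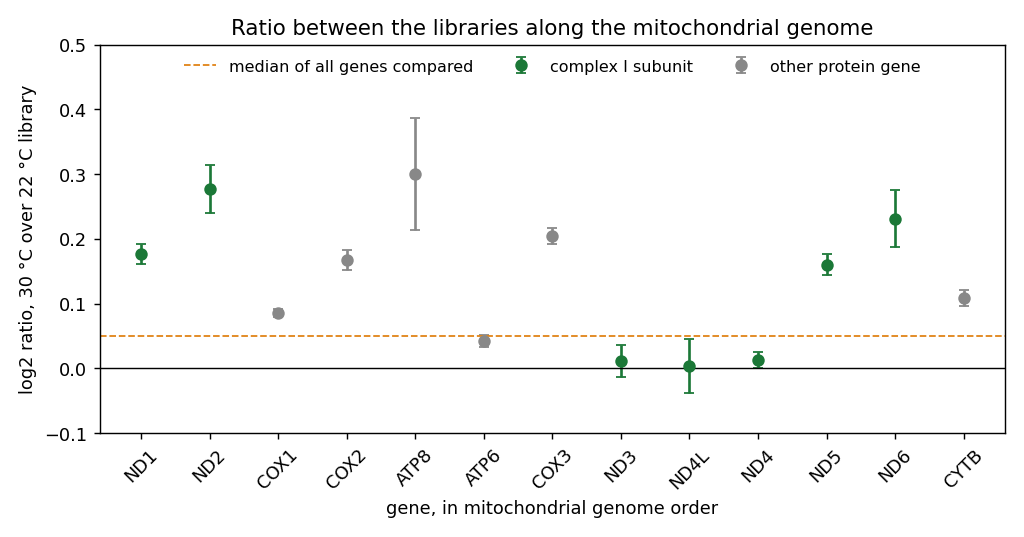
Points give the log2 ratio of the 30 °C over the 22 °C library (y) for the 13 protein genes of the mitochondrial genome in their order (x, evenly spaced), with 95% counting intervals; green points are complex I subunits, grey points the other proteins. ND3, ND4L and ND4, and ATP6 among the other proteins, lie under the dashed line at 0.05, the median of all genes compared, so that they turn negative after centring on it, while ND1, ND2, ND5 and ND6 lie above that line.

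How the libraries are scaled to each other does not touch a ratio of 2 members within a library. ND1 over ND4 was 0.9999 (0.990 to 1.01) in the 30 °C library and 0.892 (0.884 to 0.901) in the 22 °C library. ND2 over ND4 was 0.652 (0.640 to 0.664) in the 30 °C library and 0.543 (0.532 to 0.554) in the 22 °C library. Both of these ratios were larger in the 30 °C library by more than counting error. ND4 over ND4L, the partners on a shared transcript, was 2.44 (2.39 to 2.49) in the 30 °C library and 2.42 (2.37 to 2.48) in the 22 °C library. ND3 over ND4 was 1.002 (0.988 to 1.02) in the 30 °C library and 1.003 (0.990 to 1.02) in the 22 °C library. Among these 3 genes the proportions thus differed between the libraries by less than counting error. Neighbours on this genome did not always keep their proportion. Between the libraries the ratio was 1.23 (1.16 to 1.31) for ATP8 and 1.03 (1.02 to 1.04) for ATP6, which lies next to it. The part of a shared transcript in the steady ratio of ND4 over ND4L was not tested.

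Of all 21 pairs of members, 15 had ratios whose intervals did not overlap between the libraries. These included each of the 12 pairs that set ND3, ND4L or ND4 against ND1, ND2, ND5 or ND6, a division drawn after the values were seen. Among 127 other genes with a mean of 500 RPKM or more, 77.9% of the 8001 pairs did not overlap either, so the count of 15 is near what abundant genes show in these libraries and is no result about the members. The other 3 of the 15 were ND1 over ND2, ND2 over ND5 and ND5 over ND6. ND5 over ND6, neighbours on opposite strands, was 2.25 (2.20 to 2.30) in the 30 °C library and 2.36 (2.31 to 2.42) in the 22 °C library. ND1 over ND5 was 2.02 (2.00 to 2.04) in the 30 °C library and 1.99 (1.97 to 2.02) in the 22 °C library, with intervals that overlap. ND4 over ND6, the most and the least deeply read of the 6 with a single length, was 4.54 (4.44 to 4.64) in the 30 °C library and 5.28 (5.16 to 5.41) in the 22 °C library. ND1 over ND6, at 4.54 and 4.72, and ND2 over ND6, at 2.96 and 2.87 in the same order of libraries, had intervals that overlap. A spread between pigs or between repeat libraries is not known here and may be larger than counting error.

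RPKM values differed more between the members than between the libraries. By mean RPKM, ND3, ND4 and ND1 ranked 29, 30 and 31 among all 27987 entries, ND2 ranked 46, ND5 ranked 49, ND4L ranked 54 and ND6 ranked 112. The highest member, ND3, was 4.55 times the lowest, ND6, in the 30 °C library and 5.30 times in the 22 °C library. In the 30 °C library the order was ND3, ND4, ND1, ND2, ND5, ND4L and ND6, and neither ND3 and ND4 nor ND4 and ND1 differed beyond counting error. The order was the same in the 22 °C library, where ND3 and ND4 did not differ beyond counting error and ND1 was lower than ND4. Every other step of the order exceeded counting error in both libraries, from a ratio of 1.08 (1.06 to 1.11) of ND5 over ND4L in the 22 °C library to 2.18 (2.11 to 2.25) of ND4L over ND6 in the same library. The proteins are present once each in a complex, and the RPKM values did not follow that equal number. ND4 and ND4L lie on a shared messenger RNA. Still, ND4 over ND4L was 2.44 in the 30 °C library and 2.42 in the 22 °C library. A step in RPKM between genes is therefore not by itself a difference in RNA amount. The part of short gene length, 297 bp for ND4L, was not tested. The messenger RNA of ND6 is known in human cells to carry little or no poly(A) tail, and these libraries were made by poly(A) selection; the part of this in the low ND6 level was not tested.

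Together the 7 genes summed to 15751 RPKM in the 30 °C library and 14657 RPKM in the 22 °C library, a ratio of 1.07. That was 2.25% of all RPKM in the 30 °C library and 2.05% in the 22 °C library. The other 6 protein genes of the same genome, which make cytochrome b, subunits of cytochrome c oxidase and subunits of ATP synthase, summed to 49009.5 RPKM in the 30 °C library and 44912 RPKM in the 22 °C library, a ratio of 1.09. Complex I thus took 24.3% of the RPKM of the 13 genes in the 30 °C library and 24.6% in the 22 °C library. Levels of complex I members were mostly below those of the other proteins, with a median of 2149 against 9824 RPKM in the 30 °C library and 1774 against 9018 RPKM in the 22 °C library. ATP8, a small ATP synthase subunit, was an exception among the other proteins at 1531 RPKM in the 30 °C library and 1243 RPKM in the 22 °C library. The ratios of the other 6 ran from 1.03 for ATP6, the neighbour of ATP8, to 1.23 for ATP8, with a median log2 ratio of 0.14. The range of the members, from 0.0038 to 0.28, overlapped with theirs. The log2 ratios of ATP6 (0.04), COX1 (0.09) and CYTB (0.11) lay between those of ND4 (0.013) and ND5 (0.16). COX2, COX3 and ATP8 lay above ND5. The gap between the 2 sets of members was thus not seen across the 13 genes.

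**Figure D4:**
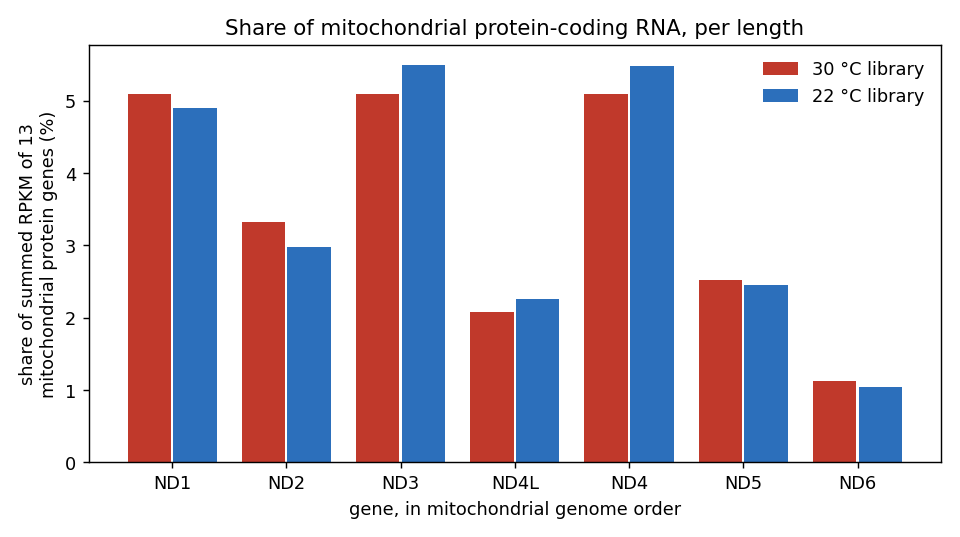
Bars give the share, in percent (y), that each complex I subunit gene (x) takes of the summed RPKM of the 13 protein genes of the mitochondrial genome, in the 30 °C library (red) and the 22 °C library (blue). The shares of ND3, ND4L and ND4 are smaller in the 30 °C library, and those of ND1, ND2, ND5 and ND6 larger.

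Shares within the RNA of this small genome do not depend on how the libraries are scaled to each other. They restate the RPKM values given above and are no further check of the split between the members. ND4 took 5.09% of the RPKM of the 13 genes in the 30 °C library and 5.48% in the 22 °C library, and ND3 took 5.10% and 5.50% in the same order. ND4L took 2.09% in the 30 °C library and 2.26% in the 22 °C library. The shares of the others were larger in the 30 °C library, with 3.32% against 2.98% for ND2, 5.09% against 4.89% for ND1, 2.52% against 2.45% for ND5 and 1.12% against 1.04% for ND6. The joint share differed by -0.28 percentage points (30 °C minus 22 °C library). A smaller share in the 30 °C library was not confined to ND3, ND4L and ND4. ATP6 took 18.5% against 19.5%, COX1 16.2% against 16.6% and CYTB 6.35% against 6.41%, while the shares of COX2, COX3 and ATP8 were larger.

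The nuclear partners of these subunits in complex I were mostly at or below level in the 30 °C library. Of 37 listed nuclear subunits 19 were matched to a symbol, and 5 of them had a log2 ratio above 0 and 14 below it, beside 58.8% of all genes above 0, with a median of -0.05 on the deposited scale and between -0.11 and -0.0063 under the rescalings. The interval of the ratio lay above 1 for 3 of the 19, beside 20.6% of all genes, and below 1 for 5, beside 10.6%. Their levels were far lower than those of the mitochondrial genes, with a median of 85.0 RPKM in the 30 °C library and 94.7 RPKM in the 22 °C library. Of the core subunits, NDUFS1, which carries iron-sulfur clusters, stood at 42.6 RPKM in the 30 °C library and 50.5 RPKM in the 22 °C library, a ratio of 0.844 (0.803 to 0.886). NDUFV1, which binds NADH, stood at 70.6 RPKM in the 30 °C library and 72.1 RPKM in the 22 °C library, with an interval that holds 1 (0.927 to 1.03). Among 16 accessory subunits, NDUFA8 was highest at 117 RPKM in the 30 °C library and 104 RPKM in the 22 °C library (log2 ratio 0.17), followed by NDUFB5 (0.13). NDUFA2 was lowest at 93.8 RPKM in the 30 °C library and 121 RPKM in the 22 °C library (log2 ratio -0.36), followed by NDUFA6 (-0.23). NDUFA6 stood at only 6.67 and 7.99 RPKM in the same order, with an interval of the ratio that holds 1 (0.683 to 1.02). No nuclear subunit was 2-fold apart.

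**Figure D5:**
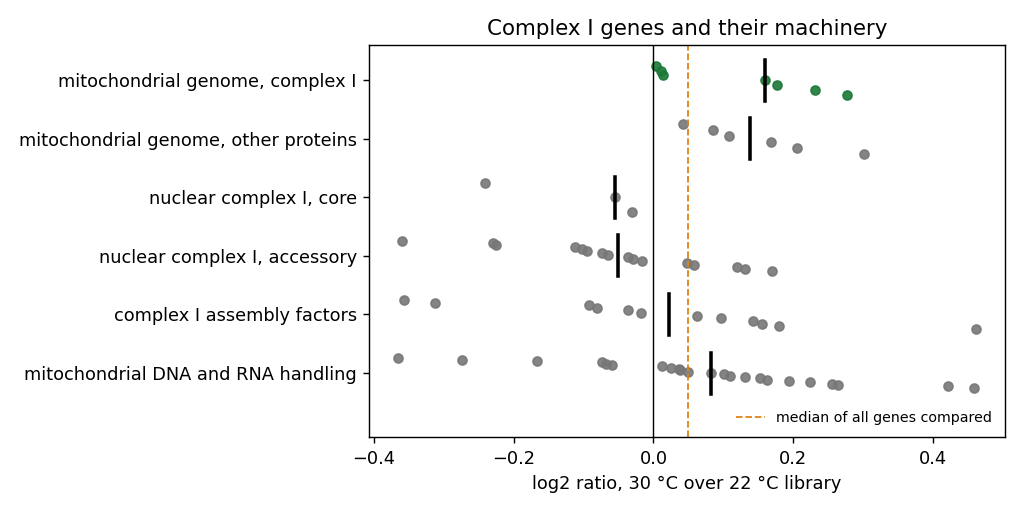
Each point is a gene compared, at its log2 ratio of the 30 °C over the 22 °C library (x), by gene list (y); black bars are list medians and the dashed line is the median of all genes compared. Complex I members of the mitochondrial genome (green) have a median of 0.16 and split into 3 genes near 0, which turn negative after centring on the median gene, and 4 genes above the dashed line, while 14 of 19 nuclear subunits lie below 0.

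Assembly factors, which put complex I together and are not part of it, were spread on both sides. Of 12 measured of 19 listed, 6 had a log2 ratio above 0 and 6 below it, beside 58.8% of all genes above 0. Their median of 0.02 lies under the 0.05 of all genes and so turns negative after centring. TMEM70, an assembly factor of ATP synthase and complex I, stood at 12.5 RPKM in the 30 °C library and 8.83 RPKM in the 22 °C library, a ratio of 1.42 (1.20 to 1.68). NDUFAF1, a factor of the membrane arm, came next with a log2 ratio of 0.18 and an interval that holds 1. NDUFAF3 stood at 28.6 RPKM in the 30 °C library and 35.8 RPKM in the 22 °C library, a ratio of 0.800 (0.708 to 0.904), and DMAC1 was lowest at -0.36 with an interval that holds 1.

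Of 32 listed genes that copy, transcribe and process the mitochondrial genome, 23 were measured, with a median log2 ratio of 0.08. Their counting interval was above 1 in 4 cases, beside 20.6% of all genes, and below 1 in 2, beside 10.6%. The log2 ratio was above 0 for 17 of the 23, beside 58.8% of all genes. It exceeded that of the median gene for 12 of the 23. The highest was TEFM, the mitochondrial transcription elongation factor, at 5.39 RPKM in the 30 °C library and 3.65 RPKM in the 22 °C library, a ratio of 1.48 (1.14 to 1.93). TRMT10C, a subunit of the nuclease that cuts the transcripts at transfer RNAs, was at 4.98 RPKM in the 30 °C library and 3.46 RPKM in the 22 °C library, with an interval that holds 1 (0.989 to 2.10). HSD17B10, another subunit of that nuclease, was at the opposite end with 34.3 RPKM in the 30 °C library and 44.5 RPKM in the 22 °C library, a ratio of 0.771 (0.664 to 0.895). REXO2, which degrades short RNA in mitochondria, was next lowest at -0.27 with an interval that holds 1. TOP1MT was listed at 0 in both libraries, and TFAM and POLRMT were not matched and are not analysed here.

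Fibre type and other cell types were read from the same libraries, since slow fibres hold more mitochondria than fast ones. The 6 matched slow fibre markers of 12 summed to 6584 RPKM in the 30 °C library and 5519 RPKM in the 22 °C library, a ratio of 1.19. Of these 6, 5 had a log2 ratio above 0, beside 58.8% of all genes, and MYH7B, a slow myosin, lay on the other side (-0.34). The 6 matched fast fibre markers of 12 summed to 67722 RPKM in the 30 °C library and 70688 RPKM in the 22 °C library, a ratio of 0.958. Of these 6, 4 lay below 0, and CASQ1 (0.07) and MYL1 (0.02) were the 2 above it, beside the same 58.8% of all genes. The sum of the slow markers differed in the same direction as ND1, ND2, ND5 and ND6, and their part in those differences was not tested. Among other cell types, the summed ratio ran from 0.813 for Schwann cell markers (2 measured) to 1.305 for lymphocyte markers (3 measured), at sums of 17.3 and 6.12 RPKM in the 30 °C library and 21.2 and 4.69 RPKM in the 22 °C library. Fibroblast markers summed to 881 RPKM in the 30 °C library and 975 RPKM in the 22 °C library, with 3 of 8 measured above a log2 ratio of 0. In the same order, adipocyte markers summed to 56.7 and 59.1 RPKM (2 of 5 above 0). Endothelial markers summed to 143 and 127 RPKM (2 of 4), and smooth muscle and pericyte markers to 107 and 96.0 RPKM (2 of 5). Macrophage markers summed to 29.7 and 27.5 RPKM (2 of 5) and red blood cell markers to 113 and 90.1 RPKM (2 of 2). Schwann cell and lymphocyte markers had 0 of 2 and 2 of 3 above 0. Over all genes, 58.8% lay above 0. PECAM1 made up most of the endothelial sum (127 and 111 RPKM), and ACTA2 most of the smooth muscle and pericyte sum (67.9 and 52.0 RPKM). The red cell anion exchanger SLC4A1 was listed at 0 in the 30 °C library and at 0.019 RPKM in the 22 °C library. The sums of these other cell types, from Schwann to red blood cell markers, were small beside those of the members, which the sum of the fast fibre markers exceeded.

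The genes with a ratio most like that of the members were sought outside the mitochondrial genome, among 38 named genes at a mean of 1000 RPKM or more. Nearest to the member median were YBX1, an RNA-binding protein, TNNT1, the slow fibre troponin T, and SLN, sarcolipin, a regulator of the muscle calcium pump, all with a log2 ratio of 0.16. SLN stood at 7356 RPKM in the 30 °C library and 6590.2 RPKM in the 22 °C library. With 2 libraries this likeness rests on a single ratio per gene.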

How the data were processed

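The authors deposited 1 RPKM value per gene and library. Bowtie, TopHat 1.4.0, Cufflinks 1.3.0 and the build Sscrofa10.2 are named, per the submitters' processing notes; the counting tool, gene lengths and treatment of reads with several matches were not given in the sources used here, so reads shared with nuclear copies of mitochondrial genes cannot be told apart. Per the labels' protocols, libraries came from 3 µg of RNA by poly(A) selection and 10 PCR cycles, with fragments near 200 bp.

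Symbols came from a gene name table, which matched 11374 entries. Library totals were chosen so that RPKM values became whole reads on whole lengths. Whole reads, up to 1000 per library, were found for 98.8% of the 13134 low entries (mean under 5 RPKM) detected in both. A gene's reads are those at its smallest length that gives whole reads in both libraries, within 0.0002 reads. The steps were tested on simulated reads. Ratio intervals are Clopper-Pearson (Python 3.11.15, SciPy 1.17.1), level intervals exact Poisson; PCR copies were not marked, so reads are not independent molecules.

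Named genes are all members, plus the 2 highest and 2 lowest of the other lists on the nuclear complex I partners and the mitochondrial machinery, and the 3 nearest in ratio. Members, lists and tests were chosen with earlier results of these data known. Alternatives changed the pseudocount, the filter, the scaling and the entry taken per symbol. No sequence is shown, and the mitochondrial ribosomal RNAs were not matched and are not analysed here.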

Additional observations from a re-analysis of the deposited data

How the results depend on the processing

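No paired analysis was possible because there was 1 library per arm, and none could be left out. Of 9 alternatives, the 4 rescalings moved the members alike. ND1, ND2, ND5 and ND6 lay above the median of all genes in every one of the 9. A rescaling moves the members and that median nearly alike, and the other alternatives hardly touch genes this abundant. That order was therefore all but fixed in advance and is no check of the result. With 7 members above 0 as deposited, 4 were above 0 after centring on the median gene and 4 after trimmed mean rescaling, where ND3, ND4L and ND4 ranged down to -0.06. The 4 members at least 1.1-fold higher became 2 under both. The member median of 0.16 became 0.11 when centred, 0.10 by the trimmed mean, 0.20 without the 10 highest genes and 0.21 without the 13 mitochondrial protein genes. The summed ratio of 1.07 became 1.04, 1.03, 1.11 and 1.11 in the same order. Pseudocount, filter and summing entries left these values within counting error. Genes at least 2-fold higher and lower, 83 and 77, numbered 290 and 193 at a pseudocount of 0.1, 7 and 20 at a pseudocount of 5, and 17 and 26 under the filter at a mean of 5 RPKM, which compares fewer genes. The median of all genes shifted by under 0.1 (log2) with every scaling. Apart from these constructions the cause was not tested. Depth limits single members little, since 1 read on 1 kb is worth 0.0437 RPKM in the 30 °C library and 0.0424 RPKM in the 22 °C library.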

Other observations

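For the regulators of mitochondrial biogenesis no difference between the libraries was detectable, and most of them stood at low levels. Of 7 listed 5 were measured, without PPARGC1A and GABPA, and their log2 ratios ran from -0.08 to 0.06, with no counting interval that excluded 1. ESRRA, a nuclear receptor that drives genes of oxidative metabolism, stood at 30.8 RPKM in the 30 °C library and 29.8 RPKM in the 22 °C library (interval of the ratio 0.956 to 1.12). NRF1, a transcription factor of nuclear respiratory genes, stood at 2.24 RPKM in the 30 °C library and 2.11 RPKM in the 22 °C library (0.752 to 1.50). PPARGC1B, a coactivator of such genes, was at 1.71 and 1.76 RPKM (0.749 to 1.27) and GABPB1 at 1.08 and 1.19 RPKM (0.664 to 1.22), in the same order. The intervals of NRF1, PPARGC1B and GABPB1 also hold the ratio of 1.21 of ND2, so equal levels are not shown for them.

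Some single fibre markers differed more than any complex I gene of the mitochondrial genome, in mixed directions within each list. CSRP3, a Z disc protein of slow fibres, stood at 188 RPKM in the 30 °C library and 102 RPKM in the 22 °C library (log2 ratio 0.87), and MYL3, a slow myosin light chain, at 802 and 591 RPKM in the same order (0.44), while MYH7B stood at 10.6 and 13.6 RPKM (-0.34). PVALB, the calcium buffer of fast fibres, stood at 93.7 RPKM in the 30 °C library and 226 RPKM in the 22 °C library (log2 ratio -1.26), while CASQ1 and MYL1 of the same list had log2 ratios of 0.07 and 0.02 and ATP2A1 of -0.13.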
